A study of Mus musculus with 8 samples.

Results

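Collagens and laminins build the extracellular matrix. Collagen chains wind into triple helices, of which the fibrillar kinds form the cables of connective tissue, type IV forms the sheet of the basement membrane, and the FACIT kinds sit on the surface of other fibrils. Laminins are trimers of an alpha, a beta and a gamma chain that start basement membranes and bind cells through integrins. In brain most of this matrix lies in vessel walls and meninges, and glia and neural precursors make particular members.

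The members are all genes whose symbol is Col or Lam followed by the chain numbering of collagens and laminins, 44 collagens and 11 laminins, so 55 of the 20608 symbols in the bulk read counts and of the 27998 genes in the single-cell lists. The deposited FPKM values cover 54 of them, all but Col6a6. By kind there were 11 fibrillar, 6 type IV, 9 FACIT, 6 type VI, 2 multiplexin, 4 transmembrane and 3 short-chain collagens, 3 others, and 11 laminin chains.

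The series profiles medulloblastoma, a cerebellar tumour, in Patched 1 deficient mice, a genotype that every sample shares. Patched 1 is a Hedgehog receptor and keeps that pathway silent without its ligand. One single-cell library came from a relapsed tumour at 3 weeks and 1 from a primary tumour, both sorted by flow cytometry after papain dissociation. Of the bulk kind, 6 RNA-seq libraries came from sorted astrocytes, 3 of stroma B and 3 of stroma A. The design text names a comparison of astrocytes in primary and relapsed tumours, but no label ties a stroma to a tumour state, so the groups keep their label names. The labels give no treatment, age or strain, and nothing says that replicates came from separate animals, so bulk p-values measure the spread between these libraries, which may be technical. The description field of the relapsed library names a primary tumour, and its title and source were followed.

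The relapsed library held 7852 barcodes and 69403567 UMIs (counted molecules), the primary library 9164 barcodes and 56332247 UMIs, and 92 barcode sequences occurred in both. After filters 7369 relapsed and 8548 primary cells were kept. Cells were clustered without the 55 members and named from marker genes that include no member, which gave 6916 relapsed and 5564 primary cells of the granule neuron lineage, the cell of origin of this tumour. Small classes were astrocyte-like (56 relapsed and 12 primary cells), oligodendrocyte precursor-like (OPC-like, 34 and 183), myeloid-like (31 and 215), endothelial-like (13 and 20), pericyte-like (13 and 3), fibroblast-like (22 and 6) and pituitary-like (122 and 0). A granule cluster led by haemoglobin genes (3 relapsed and 1814 primary cells) was set aside, and 159 relapsed and 731 primary cells stayed unnamed. Clusters with at least 3 raised astrocyte markers that the naming rule left out held 0.163% of relapsed and 0.737% of primary cells. The sort for tumour cells can set these shares. Each state is 1 library, so no test between states was possible. Levels are given as CPM, the UMIs of a gene scaled to an equal UMI total for each class and library. Intervals for single-cell values are 95% intervals that cover counting error only.

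Tumour cells carried a narrow set of these genes. In the granule lineage, Col9a3, a chain of the FACIT collagen type IX best known from cartilage, held 51.8% of the 12048 member UMIs in the relapsed library and 45.6% of the 5017 in the primary library. Lama5, the alpha chain of the laminins of mature basement membranes, held 11.4% and 6.28%. Col11a1, a minor fibrillar chain, held 8.02% and 7.28%, and Col18a1, the multiplexin whose end fragment is endostatin, held 5.84% and 7.47%. The lineage made up 64.1% of all member UMIs in the relapsed library, where it was 93.9% of cells. In the primary library it made up 61.4% of member UMIs and 65.1% of cells. The granule cluster set aside held a further 19.2% of member UMIs and 21.2% of cells in the primary library, and 0.03% and 0.04% in the relapsed library.

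**Figure D1:**
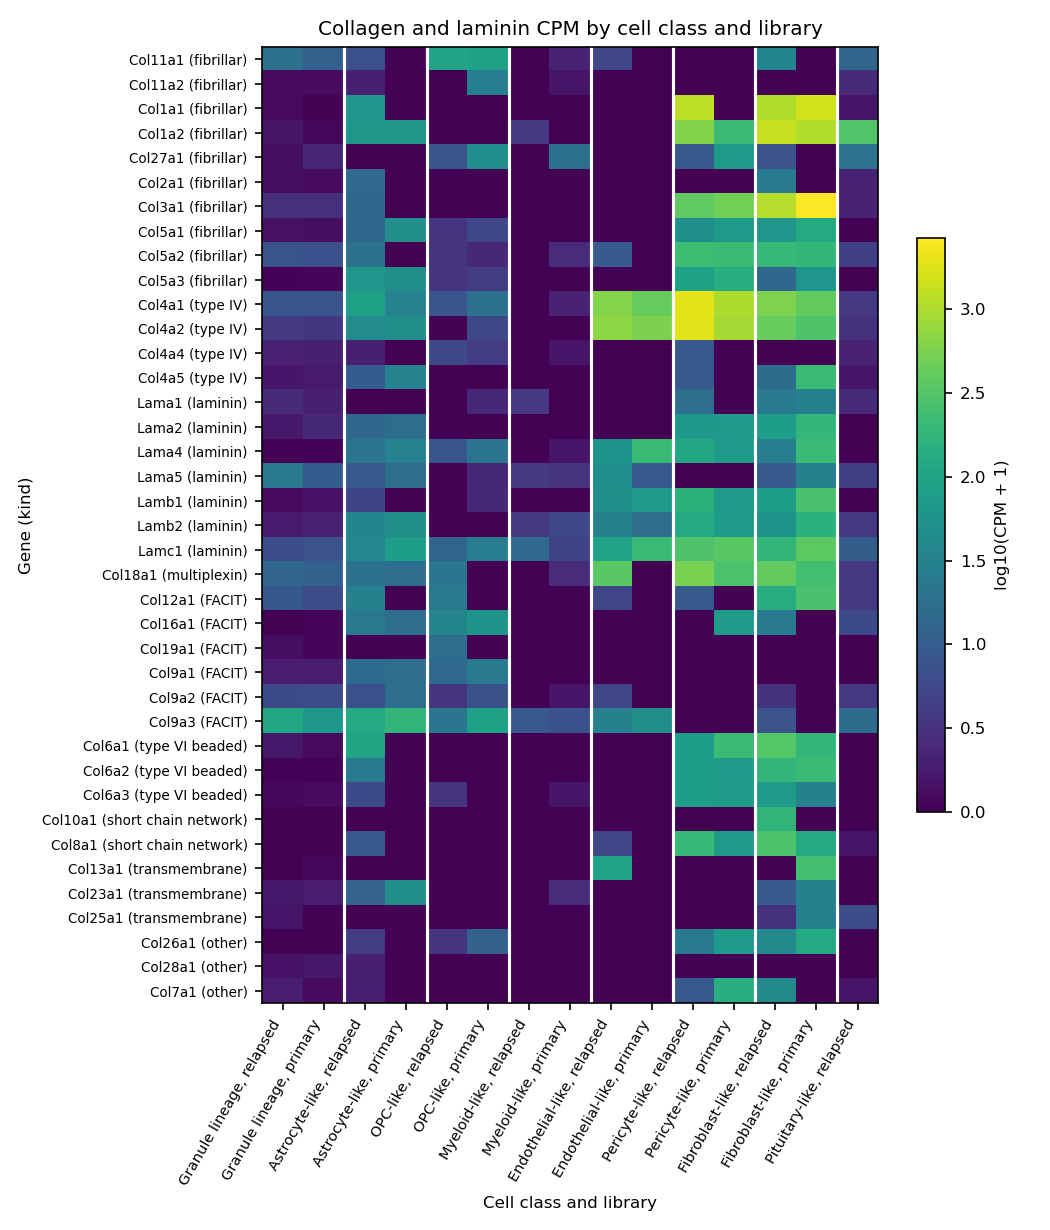
Heat map of log10(CPM + 1) for the members with at least 20 UMIs in some class (rows, with their kind), by cell class and library (columns, relapsed left of primary). Col9a3 is bright across the granule lineage, Col4a1 and Col4a2 across endothelial-like, pericyte-like and fibroblast-like cells, and Col1a1, Col1a2 and Col3a1 in fibroblast-like cells.

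The relapsed granule lineage had 215 member CPM (interval 211 to 219), against 140 in the primary lineage (136 to 144), a log2 ratio of 0.62. By kind, FACIT collagens summed to 125 CPM in relapsed and 75.6 in primary cells, laminins to 33.6 and 19.5, and fibrillar collagens to 28.1 and 20.6. Type IV collagens were nearly level, at 11.7 and 11.3 CPM, with a log2 ratio of 0.06 (interval -0.12 to 0.24). The higher sum in the relapsed library therefore lay in few genes. Different clusters hold most of the lineage in the 2 libraries: 0, 1, 4, 5, 6 and 7 in the relapsed and 2, 8, 17, 19, 20, 21 and 22 in the primary library.

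Col9a3, on chromosome 2 at 180597790 to 180622189 (plus strand, mm10), measured 111 CPM in the relapsed lineage (interval 108 to 114) and 63.9 in the primary lineage (61.3 to 66.6), a log2 ratio of 0.80 (0.73 to 0.87). A Col9a3 UMI was seen in 51.5% of relapsed and 29.3% of primary granule lineage cells, whose median depths were 6967 and 5759 UMIs. With every cell thinned to 2000 UMIs the shares were 19.4% and 12.4%. Myeloid-like cells, which should lack the gene, showed it in 9.68% of relapsed and 4.65% of primary cells at median depths of 11083 and 6056 UMIs, and thinned in 0% and 0.93%. The other type IX chains did not follow Col9a3: Col9a2 had 4.90 and 5.08 CPM and Col9a1 0.89 and 0.81 in relapsed and primary lineage cells. Of cells with a Col9a3 UMI, 4.97% in the relapsed and 4.60% in the primary library also held a UMI of Col9a1 or Col9a2. Reads of Col9a3 can overlap those of Tcfl5, annotated on the other strand.

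Lama5 showed a larger ratio than Col9a3. The gene lies on chromosome 2 at 180176373 to 180225859 (minus strand), and it measured 24.4 CPM in the relapsed lineage (interval 23.1 to 25.7), against 8.80 in the primary lineage (7.85 to 9.83), a log2 ratio of 1.47 (1.29 to 1.65). A Lama5 UMI was present in 16.5% of relapsed and 5.14% of primary cells, and in 4.67% and 1.62% after thinning; myeloid-like cells had it in 3.23% and 1.40% unthinned, and in none thinned. Of the partner chains of Lama5 trimers, Lamc1, the common gamma chain, and Lamb2, a beta chain, did not show this ratio. Lamc1 had 5.52 and 6.54 CPM (log2 ratio -0.24, interval -0.49 to 0.01), and Lamb2 had 0.78 and 1.03. Other beta chains are not given here for the lineage.

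The 250 bases before the start of Lama5 (chr2:180225860-180226109, minus strand, RefSeq promoter table for GRCm38.p6) are shown because Lama5 had the largest ratio among the abundant members. Capitals mark the GC box GGGCGG on either strand.
Lama5: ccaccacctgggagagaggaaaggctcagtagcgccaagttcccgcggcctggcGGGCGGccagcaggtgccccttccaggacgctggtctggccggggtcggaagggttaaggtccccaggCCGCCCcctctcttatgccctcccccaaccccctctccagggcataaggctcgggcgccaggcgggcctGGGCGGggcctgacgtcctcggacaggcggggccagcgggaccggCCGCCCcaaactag
This window held 4 GC boxes at 72.4% G and C, beside a mean of 53.2% over all windows of the table, and overlaps no annotated exon. Its RefSeq and GENCODE starts are the same base. The table held 40 of the 55 members in 44 windows. Over the same 250 bases 32.7% of all 32851 windows held a GC box, as did 24 of the 44 member windows. TATAAA occurred in 12.4% of all windows and in 5 of the 44, and CCAAT in 33.8% of all and in 14. These are letter matches and not tested sites.

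Among further members, Col11a1 measured 17.2 CPM in relapsed and 10.2 in primary lineage cells (log2 ratio 0.76, interval 0.58 to 0.93). Col12a1, a FACIT collagen, had 7.64 and 5.08 (log2 ratio 0.59, 0.33 to 0.85). Most of its UMIs lay in the cluster with most Neurod1 of each library. Col12a1 had 73.2 CPM in cluster 6 (relapsed) and 44.0 in cluster 8 (primary), and at most 4.25 in any other granule cluster. The part of cluster sizes in its lineage ratio was not tested. Col18a1 had 12.5 and 10.5 (0.26, 0.08 to 0.44), and Col4a1 7.18 and 6.84, with an interval of the log2 ratio from -0.16 to 0.30. Of 29 members with at least 20 UMIs in the lineage, 4 were at least 2-fold higher in the relapsed library with intervals apart, beside 6.21% of all 13730 genes with as many UMIs. They were Lama5, Col7a1 (the anchoring fibril collagen, 48 relapsed and 8 primary UMIs), Col6a1 (37 and 8) and Col25a1 (a transmembrane collagen of neurons, 32 and 2). Col27a1, a fibrillar collagen, was the 1 member lower by that rule, with 20 UMIs in the relapsed and 46 in the primary lineage, beside 8.43% of all genes.

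**Figure D2:**
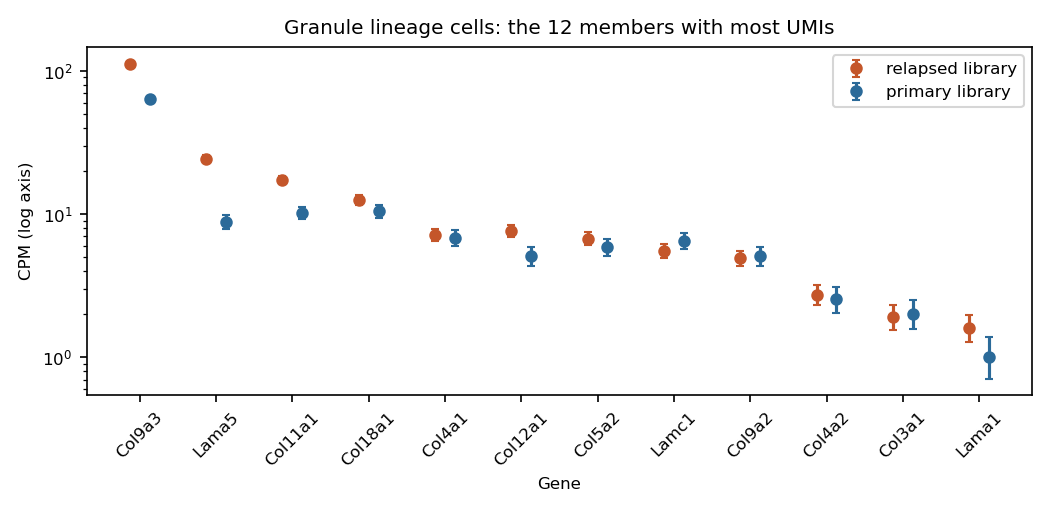
CPM (log axis) in granule lineage cells for the 12 members with most UMIs; points are the relapsed (left of each pair) and primary library, bars exact Poisson 95% intervals. Col9a3, Lama5, Col11a1, Col12a1 and, narrowly, Col18a1 have intervals apart, with the relapsed library higher, while Col4a1, Col5a2 and Col9a2 overlap.

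Within the lineage Lama5 and Col9a3 were spread in different ways. The relapsed cluster with the most Neurod1, a factor of maturing granule neurons, had 1606 Neurod1 CPM and 3.61 of Lama5, whereas the other 5 relapsed clusters had between 12.9 and 35.3 of Lama5. In the primary library the 2 clusters with most Neurod1 (1727 and 635 CPM) had 1.69 and 2.38 of Lama5, and the other 5 had between 6.89 and 15.2. Low Lama5 thus went with high Neurod1 in both libraries. Col18a1 was also low there, at 1.80 in the relapsed and 0.85 and 2.55 in the primary Neurod1-rich clusters. The other clusters had 8.99 to 23.1 of Col18a1 in the relapsed and 3.23 to 28.4 in the primary library. Col4a1 was at 0.77, 0 and 0.51 in the same Neurod1-rich clusters. It was also low in relapsed cluster 4, at 0.96, and at 7.23 or more in the remaining clusters. Col9a3 was 98.4 in the Neurod1-rich relapsed cluster, inside the range of 85.3 to 123 of the other relapsed clusters. In the primary library it was 71.6 and 97.3 in the Neurod1-rich clusters and between 31.5 and 74.6 in the others. Outside the Neurod1-rich clusters, relapsed clusters lay above primary clusters for Col9a3 (85.3 to 123 against 31.5 to 74.6) and Col11a1 (14.2 to 19.8 against 5.38 to 11.3), while for Lama5 the ranges overlapped at 12.9 to 15.2. In the Neurod1-rich clusters Col11a1 was 18.8 in the relapsed and 16.1 and 15.1 in the primary library, so that over all clusters the ranges overlapped. These cluster values are descriptions without a test, since clusters of 1 library are not replicates.

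**Figure D3:**
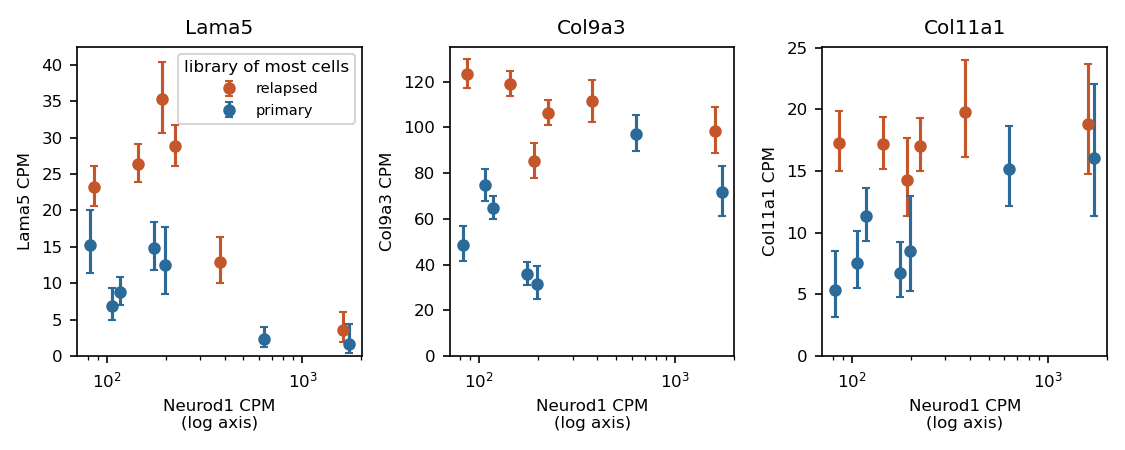
CPM of Lama5, Col9a3 and Col11a1 (vertical axes) against Neurod1 (horizontal log axis) in the granule lineage clusters, coloured by the library that gives most of the cells; bars are exact Poisson 95% intervals. Lama5 is lowest in the Neurod1-rich clusters of both libraries, while Col9a3 is not.

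Vessel and connective tissue cells had the most member CPM. Pericyte-like cells had 8298 member CPM in the relapsed and 5007 in the primary library, where only 3 cells held the class. Type IV chains led there: Col4a1, the chain of every basement membrane, measured 1922 (interval 1683 to 2185) in relapsed and 1001 (547 to 1680) in primary cells, and its partner Col4a2 1806 and 930. The genes for these 2 chains start 21 bases apart on opposite strands of chromosome 8, and their reads near the start cannot be told apart without strand. Col1a1, the main chain of type I collagen, had 146 UMIs in relapsed and 0 in primary pericyte-like cells, at least 5.61-fold higher against a limit of 3 counts, and 1 cell held 45.2% of those UMIs. It was the 1 member of 10 past the 2-fold rule, beside 2.08% of all genes higher and 2.08% lower in relapsed pericyte-like cells.

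Endothelial-like cells had 2174 member CPM in the relapsed library and 1549 in the primary library. Col4a2 measured 700 in relapsed and 565 in primary cells and Col4a1 611 and 411. Of 7 members with at least 20 UMIs, Col18a1 and the transmembrane Col13a1 were higher in relapsed cells, beside 6.77% of genes, and Lama4, the endothelial laminin alpha chain, was lower, beside 4.01%. Col18a1 had 82 UMIs in relapsed and 0 in primary cells, at least 14.5-fold higher against the same limit. Its UMIs lay in 53.8% of the 13 relapsed cells, and 41.5% of them in 1 cell. Col13a1 had 22 and 0 UMIs, at least 3.88-fold higher, with 50.0% in 1 cell. Lama4 measured 55.5 CPM in relapsed cells, against 202 in primary cells (log2 ratio -1.86, interval -2.95 to -0.84), and Lamc1 had 94.0 and 210 (-1.16, -2.05 to -0.28). In the same cells oligodendrocyte markers summed to 1333 CPM in relapsed and 121 CPM in primary cells, fibroblast markers to 803 and 339 CPM, and pericyte markers to 21.4 and 202 CPM, at median depths of 13371 and 4704 UMIs. Their part in these values was not tested.

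Fibroblast-like cells carried the fibrillar collagens. Col1a2, the second chain of type I collagen, had 1379 CPM in relapsed and 1071 in primary cells, Col1a1 1063 and 1529, and Col3a1, the collagen of distensible tissue, 1102 and 2661. Between the 22 relapsed and 6 primary cells 3 members of 21 were lower in relapsed, beside 3.51% of genes: Col3a1 (log2 ratio -1.27), Lamb1 (-1.78) and Lama4 (-2.93). One member, Col10a1, a short-chain collagen of growth cartilage, was higher, beside 2.11%, with 81 UMIs in relapsed and 0 in primary cells; 3 cells held them and 1 of those 70.4%. Members summed to 7096 CPM in relapsed and 10002 in primary cells, a log2 ratio of -0.50. At 1000 detected genes other cells joined the class, which then held 28 relapsed and 58 primary cells, with 6596 and 1614 CPM (2.03). Col3a1 was then at 1017 and 337, Lamb1 at 73.8 and 31.2, and Lama4 at 25.9 and 27.8, so the ratios of Col3a1 and Lamb1 turned with the sum. The joined cells brought few fibrillar UMIs: primary Col3a1 had 87 in the main setting and 97 there, and primary Col1a1 50 and 52. In the other alternatives the ratio of the sum stayed at -0.50.

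Astrocyte-like cells had 890 member CPM in the relapsed and 776 in the primary library, with an interval of the log2 ratio from -0.22 to 0.65. Col9a3 led, at 125 (interval 104 to 149) in relapsed and 178 (88.8 to 318) in primary cells. Col6a1, a chain of the microfibril collagen type VI, had 103 UMIs in relapsed and 0 in primary cells, at least 2.11-fold higher against 3 counts, and its UMIs lay in 44.6% of relapsed astrocyte-like cells. It was the 1 member of 13 past the rule, beside 2.16% of genes higher and 3.78% lower in relapsed cells. Col1a1 in relapsed cells came almost whole from 1 cell, which held 98.4% of its 61 UMIs. Median depths differed, 16740 UMIs per cell in relapsed and 4768 in primary astrocyte-like cells. Different clusters held most of the class: a pair of clusters held 33 and 13 relapsed cells and 0 primary cells, and another (15.7) held 0 relapsed and 7 primary cells. Summed fibroblast markers were 2254 CPM in relapsed and 921 CPM in primary cells of the class, and pericyte markers 661 and 145 CPM; their part in the Col6a1 values was not tested.

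OPC-like cells were led by fibrillar and FACIT chains. Col11a1 measured 99.6 CPM in relapsed and 90.4 in primary cells, and Col16a1, a FACIT collagen, 34.7 and 58.8. Of 6 members 2 were lower in relapsed cells, beside 11.4% of genes, and 0 higher, beside 7.26%: the lower ones were Col9a3 (20.9 against 90.4, log2 ratio -2.12) and Col27a1 (6.95 against 46.7, -2.75). Col11a2, the partner chain of Col11a1, had 0 relapsed and 19 primary UMIs, at least 4.12-fold lower, and Col20a1, a FACIT collagen, 0 and 6. The relapsed and primary cells of this class come from different clusters, 12 and 23, and their median depths were 12840 and 3421 UMIs, so a class difference and a difference between libraries cannot be told apart.

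The pituitary-like cells of the relapsed library, a cell type from outside the tumour's tissue, carried 1 collagen above all. Col1a2 held 73.4% of their 779 member UMIs, at 314 CPM (interval 289 to 341) in 76.2% of cells, whereas Col1a1 stood near 0 there. Myeloid-like cells had the least of any class, 51.7 member CPM in relapsed and 58.0 in primary cells. Lamc1 led in relapsed cells, with 5 of 19 member UMIs, and Col27a1 in primary cells, with 30 of 101, while it had 0 UMIs in relapsed cells.

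In the bulk astrocyte libraries, 5 members of at least 1 FPKM had all 3 stroma B libraries below all 3 stroma A libraries: Col11a2, Col20a1, Col27a1, Col16a1 and Lama4. The share of all genes at that level with this pattern is not given here. At any level 9 of the 55 members (16.4%) had it, beside 13.1% of genes. None of these members passed the threshold of adjusted p 0.05 in edgeR's quasi-likelihood test, which called 0 of the 55 members and 0.663% of the 14176 genes tested. Unadjusted p was under 0.05 for 14 members, beside 21.8% of genes; 13 of the 14 were fitted lower in stroma B, beside 10.6% of genes. All 55 members passed the count filter. DESeq2, which tested 19969 genes, called 10 members beside 9.0% of genes: Col11a2, Col20a1, Col27a1, Col16a1, Lama4, Col13a1, Col14a1, Col24a1 and Lamc3 lower and Col2a1 higher in stroma B. Without the count filter edgeR called Col11a2 and Col20a1, beside 1.14%, and without stroma B replicate 3 it called 5 members, Col11a2, Col20a1, Col27a1, Col16a1 and Col19a1, beside 8.70%.

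Col11a2, on chromosome 17 at 34039437 to 34066685 (plus strand, mm10), had 20.6, 7.27 and 40.4 CPM (here reads scaled to library size with TMM factors) in stroma B, against 231, 261 and 229 CPM in stroma A. The groups lay far apart, and no stroma B library came near those of stroma A. Its log2 fold change was -3.40 ± 0.57 (SE, n = 3 each, edgeR adjusted p = 0.0575).

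Col20a1, a FACIT collagen on chromosome 2 at 180986535 to 181018363 (plus strand), had 5.99, 9.31 and 21.1 CPM in stroma B, against 87.4, 116 and 81.4 CPM in stroma A. Here too the groups did not overlap, and the log2 fold change was -2.96 ± 0.48 (SE, n = 3 each, edgeR adjusted p = 0.0542). In both genes replicate 3 was the highest of the stroma B libraries.

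Col27a1, on chromosome 4 at 63214004 to 63334991 (plus strand), had 22.1, 9.31 and 27.9 CPM in stroma B and 64.1, 54.0 and 97.5 CPM in stroma A (log2 fold change -1.86 ± 0.44, edgeR adjusted p = 0.102). Col16a1, on chromosome 4 at 130047840 to 130099283 (plus strand), had 74.3, 107 and 187 CPM in stroma B and 221, 370 and 481 CPM in stroma A (-1.54 ± 0.42, edgeR adjusted p = 0.120). Lama4, on chromosome 10 at 38965515 to 39110188 (plus strand), had 24.5, 64.3 and 50.7 CPM in stroma B and 104, 111 and 198 CPM in stroma A (-1.57 ± 0.41, edgeR adjusted p = 0.115). None of these 3 genes had overlapping groups, at smaller fold changes than Col11a2. Over all members 9 had stroma B wholly below stroma A, beside 13.1% of genes, and 0 wholly above, beside 14.2% (27.2% in either direction); the other 4 (Col19a1, Col24a1, Col6a4 and Lamb3) stayed under 1 FPKM.

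The 250 bases before the RefSeq starts of Col11a2 (chr17:34038888-34039137, plus strand) and Col27a1 (chr4:63215162-63215411, plus strand) are shown as those of a pair of genes with stroma B below stroma A whose windows overlap no annotated exon, again with the GC box in capitals and from the same RefSeq table. These RefSeq starts are not the GENCODE starts printed above: that of Col11a2 lies upstream, at 34039138, and that of Col27a1 lies 1408 bases downstream, at 63215412, so that its window is inside the GENCODE gene.
Col11a2: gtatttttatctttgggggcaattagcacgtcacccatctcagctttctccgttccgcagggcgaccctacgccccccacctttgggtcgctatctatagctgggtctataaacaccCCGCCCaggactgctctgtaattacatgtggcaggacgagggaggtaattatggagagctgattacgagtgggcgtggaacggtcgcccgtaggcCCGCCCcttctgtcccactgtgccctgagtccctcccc
Col27a1: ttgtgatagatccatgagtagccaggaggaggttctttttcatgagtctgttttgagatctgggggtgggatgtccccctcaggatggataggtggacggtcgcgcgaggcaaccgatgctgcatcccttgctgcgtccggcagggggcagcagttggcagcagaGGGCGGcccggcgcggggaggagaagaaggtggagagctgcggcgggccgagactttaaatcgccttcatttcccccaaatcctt
Col11a2 held 2 GC boxes at 57.6% G and C, and Col27a1 held 1 at 59.6%.

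**Figure D4:**
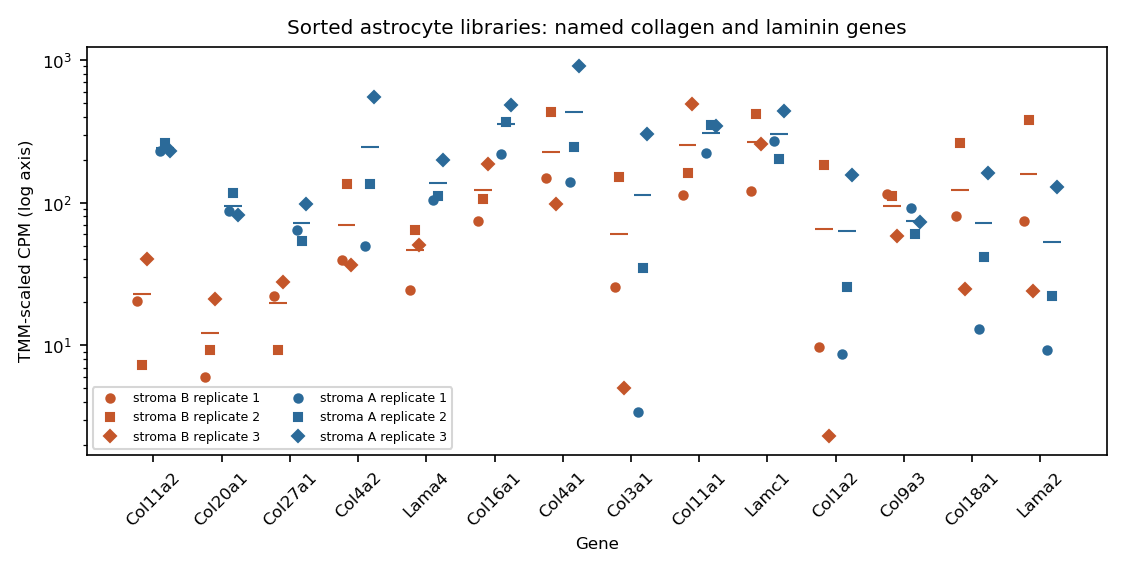
CPM scaled with TMM factors (log axis) of the 14 members named by rule in the sorted astrocyte libraries; each point is a library, lines are means of 3, stroma B is left of stroma A, and genes run from the lowest to the highest fitted fold change. Col11a2, Col20a1, Col27a1, Lama4 and Col16a1 show groups that do not overlap, while Col4a1, Col3a1 and Col1a2 spread widely inside each group.

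Markers of several other cell types also differed between the groups. The 11 OPC markers summed to 2653, 3162 and 12242 CPM in stroma B and 21991, 14163 and 12362 CPM in stroma A, and Pdgfra, which marks OPCs, to 805, 485 and 3607 against 7606, 4285 and 3988 CPM. In stroma B the OPC sum was highest in replicate 3, as were Col11a2, Col20a1, Col27a1 and Col16a1 but not Lama4. In stroma A the OPC sum was highest in replicate 1, where none of these 5 genes was highest. Of 11 oligodendrocyte markers 10 were wholly lower in stroma B, as were 5 of the 11 OPC markers. The pericyte and fibroblast lists share Cspg4 and Pdgfra with the OPC list. Without Cspg4 the other 13 pericyte markers summed to 92.7, 294 and 42.5 CPM in stroma B and 18.3, 333 and 1284 CPM in stroma A, with 1 wholly lower. Without Pdgfra the other 15 fibroblast markers summed to 298, 611 and 255 CPM in stroma B and 94.0, 145 and 546 CPM in stroma A, with 2 wholly lower and 2 wholly higher. Both sums overlap between the groups. All 17 cell cycle markers were wholly higher, and granule lineage markers summed to 4230, 3975 and 665 CPM in stroma B and 793, 327 and 499 CPM in stroma A, with 6 of 20 wholly higher. Endothelial markers ranged from 54.5 to 107 CPM in stroma B and from 60.8 to 1252 CPM in stroma A, and none of these lists had a marker at 0 in all libraries. The astrocyte markers summed to between 4747 and 13821 CPM in stroma B and between 3132 and 8504 CPM in stroma A, with 5 of 14 wholly higher in stroma B and 0 wholly lower. Aqp4, the water channel of astrocytes, had 1014, 752 and 348 CPM in stroma B and 95.3, 20.5 and 238 CPM in stroma A, and Gfap, their intermediate filament, was at 81.4 to 963 and 37.4 to 146 CPM. The part of these markers in the member values was not tested, and in bulk samples fewer cells of a type and less RNA per cell cannot be told apart.

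In level per length, Col4a1 led the members, at 13.2 ± 11.5 FPKM in stroma B and 20.9 ± 20.1 FPKM in stroma A (SD, n = 3 each). Next were Col16a1 (an average of 13.95 FPKM over the 6 libraries), Lamc1 (13.2 ± 7.91 and 12.8 ± 5.25), Col11a1 (12.8 ± 10.5 and 12.7 ± 1.19) and Col9a3 (12.5 ± 4.10 and 9.04 ± 3.90), so the tumour lineage's main collagen ranked among the top 5 in astrocyte libraries too. The FPKM values of Col4a1, Lamc1, Col11a1 and Col9a3 overlapped between stroma B and stroma A. Those of Col16a1 did not overlap, with every stroma B library below every stroma A library, so its average hides a group difference. The order of these genes was not tested. Of the 54 members with FPKM values 28 averaged at least 1 FPKM.

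Col4a1, Col1a2, Col3a1, Col18a1 and Lama2, which are known from vessel walls and connective tissue, varied widely within each group. Col4a1 had 149, 432 and 97.6 CPM in stroma B and 141, 245 and 913 CPM in stroma A. Col1a2 had 9.76, 184 and 2.30 CPM in stroma B and 8.67, 25.5 and 157 CPM in stroma A. Stroma B replicate 2 and stroma A replicate 3 were the highest in their groups for Col4a1, Col1a2, Col3a1, Col18a1 and Lama2. Summed type VI collagens were 6.24, 24.6 and 0.33 FPKM in stroma B and 0.50, 1.46 and 8.72 FPKM in stroma A. The fitted fold changes of these genes had SEs near or above their size, as for Col1a2 (0.04 ± 1.54) and Lama2 (1.58 ± 1.20), and the sign of Col1a2, Lama2 and Col18a1 turned without stroma B replicate 2. Pdgfrb, of pericytes, was 7.65, 9.84 and 0.92 CPM in stroma B and 2.40, 55.1 and 216 CPM in stroma A.

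**Figure D5:**
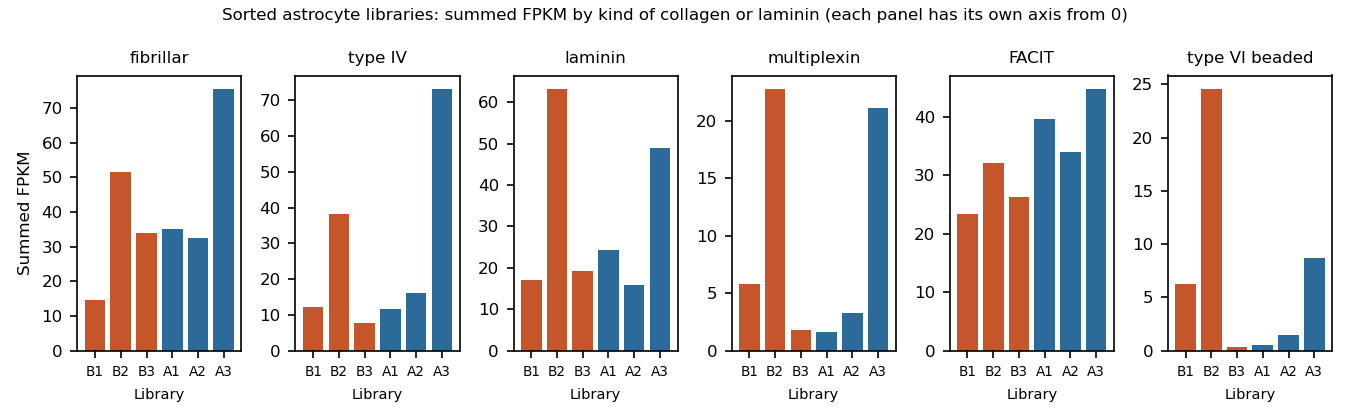
Summed FPKM of each kind of collagen and of laminins in the sorted astrocyte libraries (bars from 0, own axis per panel, stroma B left of stroma A). B2 and A3 are the highest of their groups for fibrillar, type IV, laminin, multiplexin, FACIT and type VI genes.

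Over the 55 members the median log2 fold change was -0.86, beside -0.03 over all genes tested, and 38 of 55 were fitted lower in stroma B, beside 51.6% of genes. Without stroma A replicate 3 the median was -0.23 with 29 fitted lower. Stroma A replicate 3 and stroma B replicate 1 share a title number, and without both of these libraries the median was -0.11 with 28. Lama5 went the other way from Lama4, at 67.9, 263 and 40.4 CPM in stroma B and 50.5, 15.3 and 53.8 CPM in stroma A, with groups that overlap (log2 fold change 1.63 ± 0.77, edgeR adjusted p = 0.262). Col2a1, the fibrillar collagen of cartilage, was higher in DESeq2 (adjusted p = 0.0223) but not in edgeR (1.72 ± 0.53, adjusted p = 0.145), at 11.9, 41.0 and 29.2 CPM in stroma B and 5.59, 12.8 and 6.63 CPM in stroma A.

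Genes that make, bind or cut this matrix were read from 5 lists. Of 104 tested genes edgeR called 0, with 13 fitted higher and 15 lower at unadjusted p under 0.05 (26.9%, beside 21.8% of all genes); DESeq2 called 14, beside 9.0%. Groups did not overlap for 22 of the 104, or 21.2%, beside 27.2% of all genes. Of these, 15 were wholly lower in stroma B and 7 wholly higher, where all genes had 13.1% and 14.2%. Medians were -0.12 for collagen making, 0.01 for matrix receptors, 0.21 for other basement membrane genes, -0.22 for interstitial matrix and -0.76 for proteases and inhibitors. Tnc, tenascin C, an adhesion-modulating matrix protein, had 394, 1060 and 264 CPM in stroma B and 91.8, 32.1 and 45.6 CPM in stroma A (log2 fold change 3.34 ± 0.65, edgeR adjusted p = 0.0678). Loxl3, an oxidase that cross-links collagen, had 13.6, 15.4 and 17.7 CPM in stroma B and 45.1, 40.2 and 33.0 CPM in stroma A, while the related Loxl1 had 41.1, 73.1 and 19.2 against 15.1, 5.78 and 9.88 CPM. Hspg2, the basement membrane proteoglycan perlecan, had 18.3, 78.5 and 38.6 CPM in stroma B and 179, 136 and 259 CPM in stroma A. Ddr2, a collagen receptor kinase, had 223, 153 and 147 against 85.1, 71.4 and 108 CPM, and Plod2, a collagen lysyl hydroxylase, 88.2, 74.1 and 74.1 against 32.3, 53.3 and 26.2 CPM. These 6 genes are among the 3 of smallest p in their lists, and their groups did not overlap. Others so chosen were also wholly lower in stroma B: Vcan, Vwa1, Itga3 and, of the proteases and inhibitors, Adamts5, Mmp17 and Timp2. Timp2 had 76.3, 168 and 238 CPM in stroma B and 429, 269 and 284 CPM in stroma A. The groups of Mfap4, Itga7 and Frem1, chosen in the same way, overlapped.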

How the data were processed

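The members and the gene lists were chosen with earlier results of these data known. The authors deposited single-cell matrices of whole-number UMI counts and, for the bulk libraries, read counts per gene symbol and FPKM values per gene; per the submitters' processing notes, Cell Ranger, STAR and Seurat were used with the mm10 build, without versions or roles, and the tool and strand choice of the bulk counts are not given here. One bulk column of stroma A was matched to its sample on the shared start of the name.

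Bulk counts (6718165 to 11798735 reads per library) were filtered with filterByExpr, scaled by TMM and compared between stroma B and stroma A by the quasi-likelihood test of edgeR (edgeR 4.0.16, R 4.3.3), with Benjamini-Hochberg adjusted p-values over all genes tested and a threshold of 0.05. SEs were derived from the fold changes and F statistics. The code was tested on simulated data. DESeq2 1.42.0, other scaling, no filter and left-out libraries were alternatives. FPKM values were used for levels between genes only.

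Cells with at least 500 genes and at most 10% mitochondrial UMIs were kept. The doublet caller's own threshold marked 0 cells in both libraries, so the 6% of cells with the highest doublet scores were removed from each. Clustering used scanpy 1.11.5 (2000 variable genes without members, 30 components, Leiden resolution 1). A cluster was named for the class with most raised markers (at least 3, 4-fold), and for the granule lineage where at least 80% of cells held 3 or more of 12 lineage factors, rules set after seeing the clusters, and names rebuilt here can differ from the authors'. Summed UMIs have exact Poisson intervals, ratios exact conditional binomial intervals. Named genes: in bulk, members past the threshold, members averaging at least 1 FPKM in a group whose groups do not overlap and the 12 highest by FPKM; in single cells, the largest shares of each class and members at least 2-fold apart with 20 or more UMIs; of related lists, up to 3 genes each with the smallest p. Further genes in the text were chosen after their values were seen. Coordinates are from GENCODE M21.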

Additional observations from a re-analysis of the deposited data

How the results depend on the processing

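Of 14 bulk members named by rule, 7 kept their direction in all 10 alternatives. Leaving out 1 library in turn, the others ranged from -1.13 to 0.12 for Col11a1, -0.46 to 2.16 for Col18a1, -3.41 to 1.95 for Col1a2, -2.91 to 1.68 for Col3a1, -1.81 to 0.24 for Col4a1, -0.13 to 3.35 for Lama2 and -0.66 to 0.19 for Lamc1 (log2). Omitting stroma B replicate 2 turned Col18a1, Col1a2, Lama2 and Col11a1 (0.01), and replicate 1 Col11a1 and Lamc1. Omitting stroma A replicate 3 turned Col3a1, Col4a1 and Lamc1 (0.18), and replicates 1 and 2 turned Col1a2 (-0.42 and -0.34). Without both libraries that share a title number, Col11a1 was 0.19, Col3a1 2.03, Col4a1 0.46 and Lamc1 0.52. The cause was not tested.

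DESeq2 called 10 members and 14 related genes, beside 9.0% of all genes. Without the count filter edgeR called 2 and 1, beside 1.14%. Leaving out stroma B replicate 3 gave 5 members and 10 related genes, beside 8.70%. Leaving out any other single library gave 0 members and 0 related genes, and there 0 of all genes tested were called. In single cells, at 1000 detected genes the member ratio became 0.83 (log2) in endothelial-like cells and 2.03 in fibroblast-like cells, where other cells joined the class. The astrocyte-like class had 12 primary cells in the main setting and more in some alternatives. Its ratio was 0.26 (interval 0.02 to 0.51) at 1000 detected genes, with 41 primary cells. It was 0.37 (0.12 to 0.62) with doublets kept, with 36. With members allowed among the variable genes it was -0.03 (-0.30 to 0.26), with 27. With doublets kept, 53.1% of relapsed granule lineage cells held a Col9a3 UMI and 17.5% a Lama5 UMI. Joining the haemoglobin-led cluster, an alternative chosen after seeing the data, gave a granule lineage ratio of 0.58. No paired analysis was possible because the single-cell groups hold 1 library each and the bulk replicate numbers were given in accession order. The shared title number lies across the bulk groups, and no label says whether these libraries have 1 source. Depth limits the small classes most: the primary pericyte-like class holds 3 cells.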
